A study of Mus musculus with 54 samples.

Results

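Pdxdc1 (pyridoxal-dependent decarboxylase domain containing 1) and 9 genes that lie beside it on mouse chromosome 16 were followed across 6 inbred strains and 3 brain tissues. The members are Pdxdc1, Parn, Bfar, Ntan1, Rrn3, Marf1, Nde1, Cep20, Abcc1 and Mpv17l. They are 10 of the 18193 genes with a probe set named for 1 gene. All probe sets that the platform annotation gives to these symbols alone were taken, 19 of the 45101 on the array, and 1 further probe set annotated to Ntan1 together with Il2 was left unnamed. Where a gene had several probe sets they are lettered by falling mean over the 54 arrays, so that A is the main one. Pdxdc1 had 4 probe sets (1436372_a_at, 1452705_at, 1419327_at and 1428200_a_at, A to D), Bfar and Marf1 had 3 each, Parn and Abcc1 had 2 each, and the other 5 genes had 1 each.

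C3H HeJ and BalbC/J were set beside 4 strains of C57 name, C57L/J, C57BLKS/J, C57BL10/J and, as the strain of comparison, C57BL6/J. All are inbred, and the labels name no introduced allele. Hippocampus, striatum and brainstem were taken from male mice killed at postnatal day 60. Each strain and tissue had 3 arrays, 1 of mice put through startle testing from postnatal day 50 and 2 of untested mice, with RNA of 3 mice, taken from left and right hemispheres in turn, pooled on every array, so that animals within a pool cannot be told apart. The 12 mice of a strain supplied all 3 tissues, which therefore share animals. The series title ties Pdxdc1 to prepulse inhibition, in which a soft sound shortly before a loud one reduces the startle, and the question behind the strain comparison is how expression across strains stands in relation to it. The labels give no inhibition score, so no strain was ranked by behaviour.

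Pdxdc1 encodes a protein with a pyridoxal-dependent decarboxylase domain, the fold of enzymes that use vitamin B6 to remove a carboxyl group from amino acids. The best known enzymes of that class make neurotransmitters such as GABA, dopamine and histamine, but the substrate of Pdxdc1 is not settled. The neighbours have unrelated jobs. Parn trims poly(A) tails, Rrn3 brings RNA polymerase I to ribosomal genes, and Marf1 is an RNA-binding protein known from mouse oocytes. Ntan1 removes the side-chain amide of N-terminal asparagine in protein degradation. Bfar is a ubiquitin ligase of the endoplasmic reticulum with a part in cell death. Nde1 and Cep20 act at the centrosome, Nde1 in the division of neural progenitors. Abcc1 is an export pump for drugs and glutathione conjugates, and Mpv17l is a relative of the mitochondrial protein Mpv17.

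Along the chromosome the order in the RefSeq gene table is Parn, Bfar, Pla2g10, A930007A09Rik, Rrn3, Ntan1, Pdxdc1, Mpv17l, Ifitm7, Bmerb1, Marf1, Nde1, Myh11, Cep20 and Abcc1. The gene models of Ntan1 and Pdxdc1 overlap by 2306 bases and those of Pdxdc1 and Mpv17l by 16 bases. Promoter windows of 300 bases (250 before the annotated start and 50 from it, RefSeq, GRCm38.p6) were found for 8 of the 10 members, the exceptions being Abcc1 and Mpv17l. Printed here are those of Pdxdc1, Parn and Marf1, the 3 genes with a promoter window whose main probe set differed among strains in every tissue. Capitals mark the GC box GGGCGG or its reverse complement CCGCCC, a site that Sp1 can bind. The windows lie at chr16:13903096-13903395 (minus strand) for Pdxdc1, chr16:13668121-13668420 (minus strand) for Parn and chr16:14159225-14159524 (minus strand) for Marf1.
Pdxdc1: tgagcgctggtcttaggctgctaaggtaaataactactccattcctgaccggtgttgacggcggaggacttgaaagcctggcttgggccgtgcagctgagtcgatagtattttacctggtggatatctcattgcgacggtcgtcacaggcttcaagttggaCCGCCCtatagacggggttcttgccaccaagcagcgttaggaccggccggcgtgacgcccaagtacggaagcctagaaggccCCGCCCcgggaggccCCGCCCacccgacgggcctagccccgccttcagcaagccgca
Parn: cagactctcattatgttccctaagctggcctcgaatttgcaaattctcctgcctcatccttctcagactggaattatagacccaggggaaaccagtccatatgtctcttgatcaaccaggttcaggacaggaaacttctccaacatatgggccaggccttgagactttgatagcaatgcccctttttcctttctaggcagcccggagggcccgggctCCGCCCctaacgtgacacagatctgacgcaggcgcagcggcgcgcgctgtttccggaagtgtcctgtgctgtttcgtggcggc
Marf1: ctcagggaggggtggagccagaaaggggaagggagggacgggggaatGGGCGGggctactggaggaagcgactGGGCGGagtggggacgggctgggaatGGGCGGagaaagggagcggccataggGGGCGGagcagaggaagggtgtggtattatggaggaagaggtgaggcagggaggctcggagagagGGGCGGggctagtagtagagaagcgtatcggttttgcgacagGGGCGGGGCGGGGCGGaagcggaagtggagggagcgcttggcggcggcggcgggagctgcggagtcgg
The GC box was found 3 times in the Pdxdc1 window, 1 time in that of Parn and 8 times in that of Marf1, where neighbouring matches overlap and form 6 separate stretches. Over all 32851 promoter windows of the same length, 35.66% held at least 1. Among the other members with a window, Bfar had 2 matches, Rrn3, Nde1 and Cep20 had 1 each, and Ntan1 had none. The other motifs searched on both strands had no match in the Pdxdc1, Parn or Marf1 windows. They were the TATA box with the letters TATAAA (in 13.62% of all windows), the box spelled CCAAT (37.41%), the E-box spelled CACGTG (7.15%) and the NRF1 core (0.971%). The Pdxdc1 window held 24 CG dinucleotides, that of Parn 14 and that of Marf1 24, against a median of 7 over all windows. These sequences come from the reference assembly and not from these mice, and a motif match is a run of letters, not measured binding.

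Deposited values are log2 expression levels, and every level or difference below is on that scale, on which 1 unit is a doubling. Tissue identity was checked with marker genes, given as a list's mean log2 value on an array. Hippocampal markers ran from 10.15 to 10.86 on the hippocampus arrays against at most 5.80 on the others, striatal markers from 12.14 to 13.36 against at most 6.26, and brainstem markers from 9.01 to 10.71 against at most 3.92. The second untested C3H HeJ brainstem array stood apart. It had the lowest mean correlation with the other arrays of its strain and tissue (r = 0.976), the lowest brainstem marker level (9.01) and a cerebellar marker level of 12.27, against 8.16 to 9.90 on the other 17 brainstem arrays, where 5 of 6 cerebellar markers were above the level that a signal had to pass to enter a test (the filter level) on every array. Results on C3H HeJ brainstem are therefore given with and without it where it matters, and the part of cerebellar tissue in them was not tested. Choroid plexus markers also varied, with lowest and highest levels of 6.37 and 10.43 on hippocampus arrays, 6.44 and 11.14 on striatum arrays, and 9.33 and 11.60 on brainstem arrays. In tissue RNA, fewer cells of a type and less RNA per cell cannot be told apart. P-values measure the spread between pools of mice within a strain, with 3 arrays each.

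The 4 Pdxdc1 probe sets did not give the same picture of the strains. Probe sets A and B were lower in C3H HeJ and BalbC/J than in every C57 strain in all 3 tissues, with differences from C57BL6/J of -2.10 to -1.08 on A and levels near the floor on B. Probe set C ran the opposite way, with every C57 array under the filter level. On probe set D the C3H HeJ and BalbC/J levels were far below the C57 levels in brainstem alone, where the C57 levels were also highest. The 4 C57 strains could not be told from each other on any of the 4.

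On probe set A the 3 hippocampus arrays of C3H HeJ read 7.62, 7.59 and 7.20 and those of BalbC/J 7.74, 7.63 and 8.11, against 9.07, 8.84 and 8.81 in C57BL6/J (startle-tested pool first, then both untested pools, here and below). In striatum they read 6.76, 6.45 and 6.67 in C3H HeJ and 7.72, 7.81 and 6.80 in BalbC/J, against 8.84, 8.71 and 8.65 in C57BL6/J. In brainstem they read 7.89, 8.02 and 7.43 in C3H HeJ and 8.03, 8.22 and 7.63 in BalbC/J, against 9.53, 9.48 and 9.49 in C57BL6/J. All 6 arrays of C3H HeJ and BalbC/J lay below all 12 arrays of the C57 strains in each tissue. The nearest approach was in hippocampus, where the highest of the 6 was 8.11 and the lowest of the 12 was 8.38. The second untested BalbC/J striatum pool read almost as low as C3H HeJ, about 1 unit below the other BalbC/J pools.

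The order of strains on probe set A was tested pair by pair with limma, adjusting over all probe sets tested. In each tissue the only step that separated a C57 strain from the next strain down was the step to BalbC/J. That step was C57BL10/J over BalbC/J in hippocampus (8.59 and 7.83, adjusted p = 0.00360), C57L/J over BalbC/J in striatum (8.68 and 7.44, adjusted p = 0.00124) and C57L/J over BalbC/J in brainstem (9.31 and 7.96, adjusted p = 2.81e-05). For those 3 pairs 11.1%, 10.5% and 8.49% of all probe sets were called. C3H HeJ was below BalbC/J in striatum (6.63 and 7.44, adjusted p = 0.0224), but not detectably so in hippocampus (7.47 and 7.83, adjusted p = 0.198) or brainstem (7.78 and 7.96, adjusted p = 0.473). The striatal difference, of -0.82, lost its call without either of 2 BalbC/J arrays or without any 1 of the 3 C3H HeJ arrays, with values of -1.13 to -0.60 over all settings. Within the C57 strains the largest step between neighbours was 0.32 in hippocampus, between C57BLKS/J at 8.59 and C57BL6/J at 8.91, and it was not called (adjusted p = 0.265).

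Probe set B read near the floor in C3H HeJ and BalbC/J. Its hippocampus arrays read 3.09, 3.04 and 3.77 in C3H HeJ and 2.94, 3.02 and 3.01 in BalbC/J, against 9.96, 9.73 and 10.07 in C57BL6/J. Over all tissues the 18 arrays of C3H HeJ and BalbC/J ran from 2.65 to 3.77 and the 36 arrays of the C57 strains from 9.48 to 10.41, with no overlap. The level that a signal had to pass to enter a test, the 40th percentile of its array, lay between 3.12 and 3.47. BalbC/J hippocampus, C3H HeJ striatum and C3H HeJ brainstem lay under it on all 3 arrays, so that their differences from C57BL6/J are bounds, setting the dim strain at that percentile. The bound was 6.57 log2 units in BalbC/J hippocampus, and C3H HeJ was at least 83.1-fold lower in striatum and at least 129-fold lower in brainstem. Since the probe set passed the filter mainly through the C57 strains, it had to differ, and no p-value is given for it.

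Probe set C gave the reverse. Its hippocampus arrays read 10.56, 10.50 and 10.64 in C3H HeJ and 10.59, 10.73 and 10.75 in BalbC/J, against 2.70, 2.81 and 2.75 in C57BL6/J. Over the 3 tissues the arrays of C3H HeJ and BalbC/J ran from 9.76 to 11.15, while those of the C57 strains lay between 2.65 and 3.00 and were all under the 40th percentile. The probe set therefore entered the test only through C3H HeJ and BalbC/J and had to differ. Against C57BL6/J the bounds for C3H HeJ were at least 151-fold higher in hippocampus, 107-fold in striatum and 155-fold in brainstem, and those for BalbC/J at least 164-fold, 149-fold and 201-fold. Between the high strains, C3H HeJ was lower than BalbC/J in striatum (9.94 and 10.43, adjusted p = 0.00840) and in brainstem (10.57 and 10.94, adjusted p = 0.0176, and a difference of -0.29 with adjusted p = 0.0458 without the array with cerebellar markers). The brainstem call was lost without 1 BalbC/J array.

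Probe set D had the lowest mean of the 4, and its strain differences varied with the tissue. In brainstem it read 4.56, 4.39 and 4.48 in C3H HeJ and 4.41, 4.47 and 4.40 in BalbC/J, against 6.54, 6.92 and 6.76 in C57BL6/J. In hippocampus it read 3.26, 3.15 and 3.97 in C3H HeJ and 3.30, 3.89 and 3.42 in BalbC/J, against 4.41, 4.25 and 4.22 in C57BL6/J. In striatum it read 3.55, 3.67 and 4.08 in C3H HeJ and 4.07, 4.33 and 4.19 in BalbC/J, against 4.52, 4.61 and 4.49 in C57BL6/J. In brainstem all 6 arrays of C3H HeJ and BalbC/J (4.39 to 4.56) lay below all 12 arrays of the C57 strains (6.09 to 6.92), whereas in hippocampus and striatum the 2 sets of arrays met. The C57 strain means of D were 6.33 to 6.74 in brainstem, but only 4.03 to 4.29 in hippocampus and 4.36 to 4.55 in striatum. A gap as wide as that in brainstem would reach below the filter level in hippocampus and striatum. Whether the wide gap is confined to brainstem therefore cannot be told. The difference of C3H HeJ from C57BL6/J was -2.26 ± 0.14 (SE) in brainstem, -0.83 ± 0.19 in hippocampus and -0.77 ± 0.13 in striatum (adjusted p = 6.73e-08, 0.00599 and 7.51e-04). That of BalbC/J was -2.31 ± 0.14 in brainstem and -0.76 ± 0.19 in hippocampus (adjusted p = 6.31e-08 and 0.0134), and in striatum -0.34 with a 95% interval of -0.61 to -0.07, which was not called. The BalbC/J hippocampus call was lost without either of 2 BalbC/J arrays or without 1 C57BL6/J array.

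**Figure D1:**
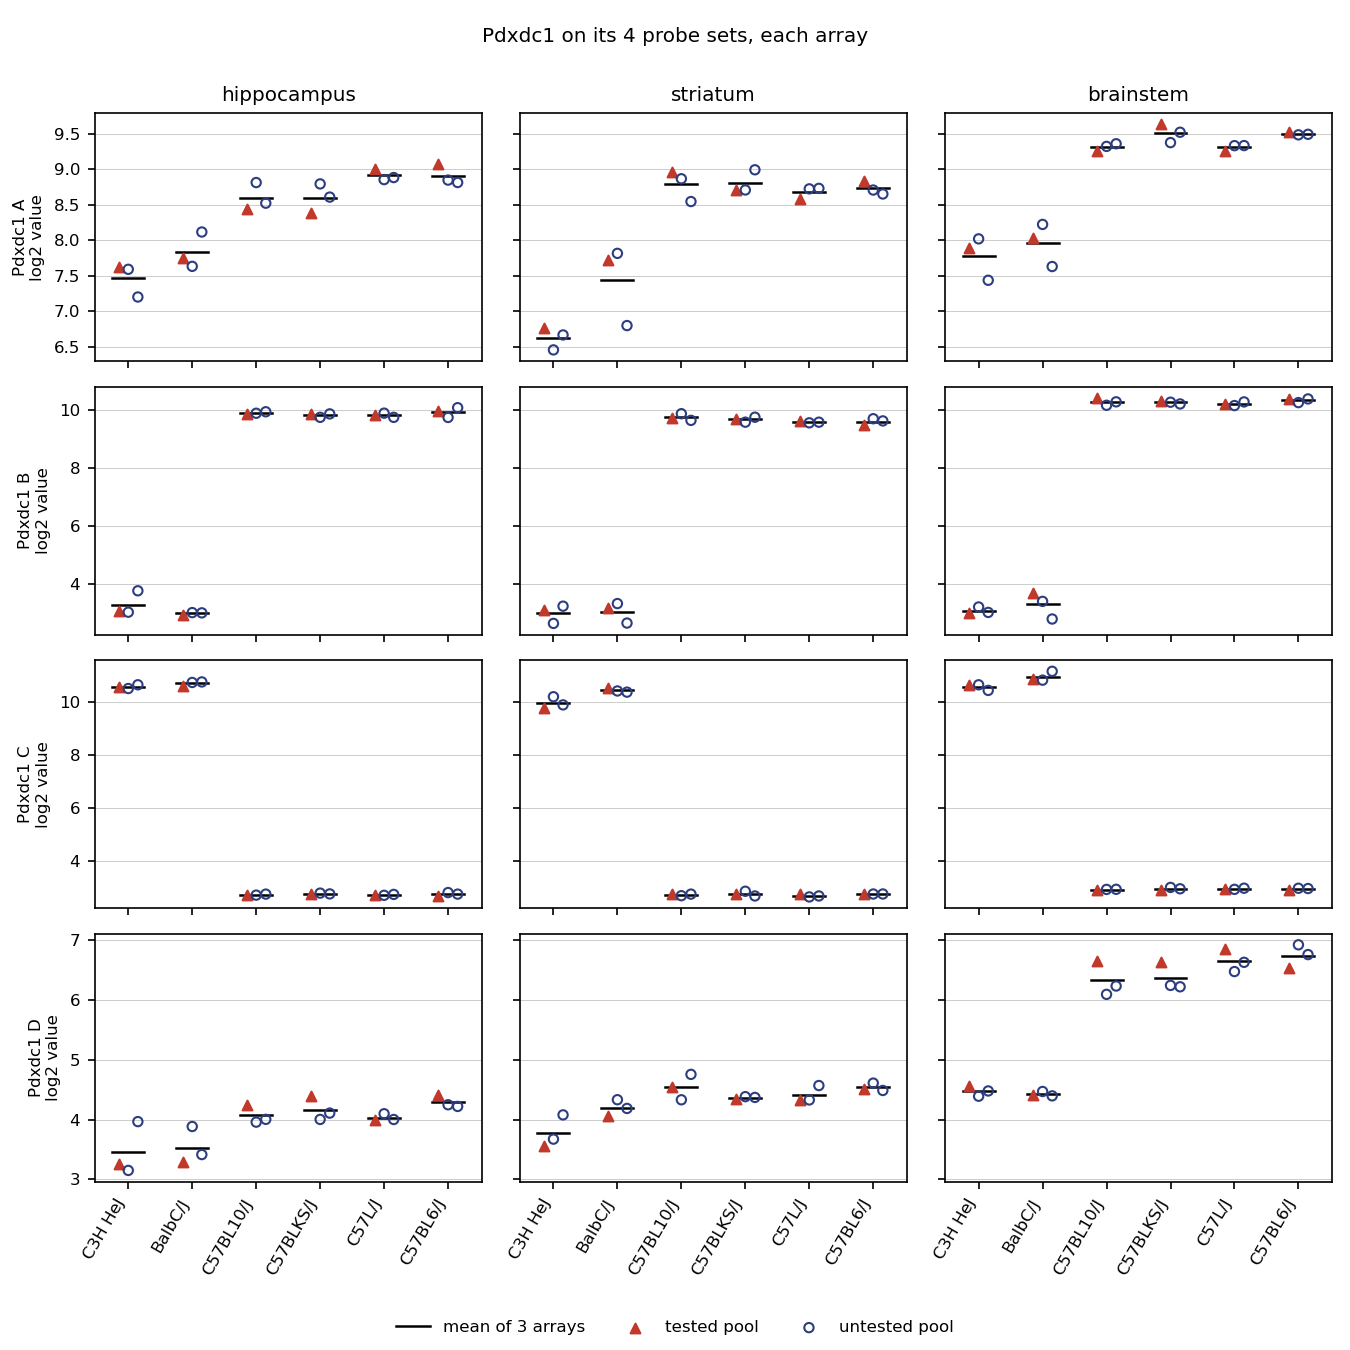
Log2 value of the 4 Pdxdc1 probe sets (rows) in hippocampus, striatum and brainstem (columns), 1 symbol per array, with strains along each horizontal axis and C57BL6/J at the right; triangles are startle-tested pools, circles untested pools, and bars the mean of 3 arrays. C3H HeJ and BalbC/J lie below the C57 strains on A and B and above them on C. On D the separation is wide in brainstem alone, where the C57 levels are also highest. Each row has its own scale.

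Whether a probe set departed from the others of its gene was tested with limma's diffSplice over all genes with several probe sets, to which 14 of the 19 belong. The background of calls was 17.4% of probe sets in hippocampus, 12.6% in striatum and 11.3% in brainstem for C3H HeJ against C57BL6/J, and 10.2%, 5.99% and 8.32% for BalbC/J. For C3H HeJ 7, 5 and 4 of the 14 were called in that order of tissues, and for BalbC/J 4, 3 and 5. Pdxdc1 A, B and C were called in all 6 comparisons, with B and C resting on signals near or under the filter level. D was called in both strains in hippocampus and brainstem but in neither in striatum. Each is set against the other probe sets of the gene, so the calls of A and D also rest on B and C, which had to differ. The Pdxdc1 calls, and their part in the counts, are therefore not separate evidence of a departure. Marf1 A was called for C3H HeJ in hippocampus and striatum (adjusted p = 4.29e-04 and 3.59e-05), and Marf1 C there in the opposite direction relative to the other Marf1 probe sets. The C3H HeJ difference of Marf1 C itself from C57BL6/J was only 0.09 in hippocampus and -0.07 in striatum, and neither was called. Bfar C was called for C3H HeJ in hippocampus and for BalbC/J in brainstem. Neither Parn nor Abcc1 had a call, so their probe sets did not differ detectably in these contrasts. Which part of a transcript each probe set reads was not examined here, because probe sequences were not used. Probe sets B and D of Pdxdc1 are annotated to the same cDNA.

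Each strain was compared with C57BL6/J over all 19 probe sets. In C3H HeJ, 4 were called higher and 6 lower in hippocampus, 2 and 3 in striatum and 5 and 4 in brainstem. Among all probe sets tested the shares called for C3H HeJ were 8.64% higher and 11.2% lower in hippocampus, 11% and 5.7% in striatum, and 11.2% and 7.13% in brainstem. In BalbC/J, 1 was called higher and 7 lower in hippocampus (6.02% and 8.43% of all), 1 and 5 in striatum (3.67% and 3.81%), and 3 and 4 in brainstem (6.64% and 4.16%). Among the 15 neighbour probe sets the C3H HeJ counts were 3 and 3, 1 and 0, and 4 and 1, and the BalbC/J counts 0 and 4, 0 and 3, and 2 and 1. The Pdxdc1 probe sets gave 1 higher and 3 lower in every comparison but 1, BalbC/J striatum, where they gave 1 and 2. The higher one is C and 1 of the lower ones is B, both of which had to differ, so these counts are not separate evidence. The median of the 19 in C3H HeJ was -0.07 in hippocampus, -7.88e-05 in striatum and 0.15 in brainstem, against 0.01, 0.03 and 0.02 over all probe sets tested. In BalbC/J it was -0.21, -0.07 and -0.06, against 0.01, -0.01 and 0.02.

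**Figure D2:**
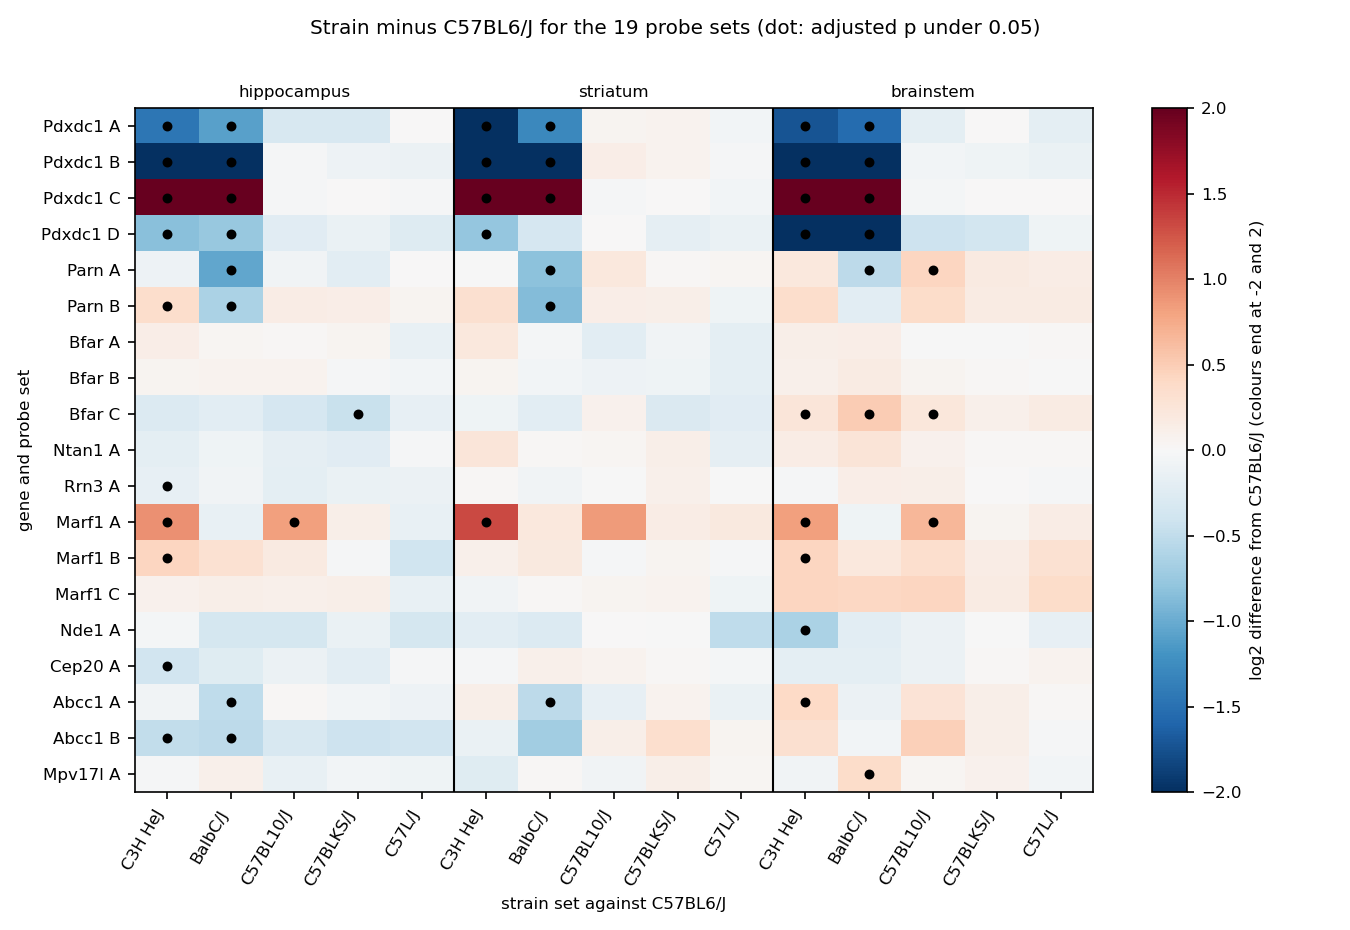
Log2 difference of each of 5 strains from C57BL6/J (columns, in 3 blocks by tissue) for the 19 probe sets (rows); red is higher and blue lower than C57BL6/J, colours end at -2 and 2, and a dot marks an adjusted p under 0.05. Dots gather in C3H HeJ and BalbC/J, and C57L/J has none. Pdxdc1 B and C entered the test mainly or only through the strains where they are high, so their dots were fixed in advance.

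The 3 C57 strains set against C57BL6/J gave few calls. Shares of all probe sets are given here for both directions together. C57BL10/J had 1 call, higher, in hippocampus (2.52% of all probe sets) and 3, all higher, in brainstem (3.88% of all), with none in striatum (0.514% of all). C57BLKS/J had 1, lower, in hippocampus (6.34% of all) and none in striatum or brainstem, where 2.17% and 2.74% of all were called. C57L/J had none in any tissue, with 4.95%, 4.06% and 3.54% of all called. The C57BLKS/J call was Bfar C (-0.45, adjusted p = 0.0411), and it was lost in 12 of 24 alternative settings.

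By the moderated F test over the 6 strains, 11 of the 19 probe sets differed in hippocampus, 8 in striatum and 9 in brainstem. Over all probe sets tested, 32.7%, 23.9% and 22.3% were called. The member counts include Pdxdc1 B and C, which had to differ. Without Pdxdc1 the counts were 7, 4 and 5 of 15. The brainstem background rose to 33.6% without the C3H HeJ array with cerebellar markers, and the member count there was 10. Of the neighbours, Parn A, Marf1 A and Abcc1 A were called in every tissue, whereas Bfar A, Bfar B, Ntan1, Rrn3, Marf1 C and Nde1 were called in none.

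Parn, the poly(A) tail trimming enzyme, was lowest in BalbC/J. On Parn A the BalbC/J hippocampus arrays read 6.90, 7.32 and 7.30, against 8.32, 8.17 and 8.16 in C57BL6/J. In striatum they read 6.95, 6.70 and 7.10, against 7.64, 7.86 and 7.74. In brainstem they read 7.46, 7.37 and 7.36, against 7.92, 7.97 and 7.88. The groups did not overlap in any tissue, and BalbC/J was also below the next lowest strain in each tissue. That strain was C57BLKS/J in hippocampus (adjusted p = 6.79e-04, 11.2% of all probe sets called), C3H HeJ in striatum and C57BL6/J in brainstem. The difference from C57BL6/J was -1.04 ± 0.14 (SE), -0.83 ± 0.13 and -0.53 ± 0.08 in hippocampus, striatum and brainstem (limma adjusted p = 6.70e-05, 7.53e-04 and 8.70e-04).

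C3H HeJ exceeded BalbC/J on Parn A by 0.94, 0.83 and 0.74 in the same order of tissues (adjusted p = 2.20e-04, 7.21e-04 and 4.59e-05). For that contrast 9.16%, 9.67% and 8.18% of all probe sets were called in either direction, and 4, 7 and 7 of the 19. Parn B gave the same direction for BalbC/J minus C57BL6/J, at -0.63 in hippocampus and -0.87 in striatum (adjusted p = 5.00e-04 and 0.00332), and at -0.21 in brainstem, where it was not called. In C3H HeJ hippocampus Parn B was higher than in C57BL6/J by 0.35 (adjusted p = 0.0233), while Parn A was not called there, and this Parn B call was lost in 4 of 24 alternative settings. In brainstem Parn A read 8.35, 8.35 and 8.38 in C57BL10/J, against 7.92, 7.97 and 7.88 in C57BL6/J, a difference of 0.43 ± 0.08 (adjusted p = 0.0133), which lost its call without 1 C57BL10/J array or either of 2 C57BL6/J arrays.

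Marf1, the oocyte RNA-binding protein, was higher on its main probe set than in C57BL6/J in all 3 tissues of C3H HeJ and in hippocampus and brainstem of C57BL10/J. On Marf1 A the hippocampus arrays read 11.68, 11.18 and 11.46 in C3H HeJ and 11.32, 11.29 and 11.42 in C57BL10/J, against 10.59, 10.65 and 10.35 in C57BL6/J. In brainstem they read 11.70, 11.67 and 11.53 in C3H HeJ and 11.12, 11.74 and 11.56 in C57BL10/J, against 10.82, 10.79 and 10.82 in C57BL6/J. In both tissues all arrays of C3H HeJ and C57BL10/J lay above those of C57BL6/J. In striatum C3H HeJ read 11.07, 11.11 and 10.80 and C57BL10/J 10.67, 10.30 and 10.64, against 9.55, 9.68 and 9.81 in C57BL6/J.

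C3H HeJ was above C57BL6/J on Marf1 A by 0.91 ± 0.13 (SE) in hippocampus (adjusted p = 9.61e-05), 1.31 ± 0.25 in striatum (adjusted p = 0.00231) and 0.83 ± 0.12 in brainstem (adjusted p = 3.30e-04). C57BL10/J was above it by 0.82 ± 0.13 in hippocampus and 0.66 ± 0.12 in brainstem (adjusted p = 0.00211 and 0.00935). In striatum its difference of 0.86 ± 0.25 was of like size and was not called (adjusted p = 0.249), and 0.514% of all probe sets were called for C57BL10/J there. C57BL10/J also stood above C57BLKS/J in hippocampus and brainstem, by 0.69 and 0.61 (adjusted p = 0.00380 and 0.0106, with 3.55% and 3.62% of all called), and above C57L/J by 0.96 and 0.52 (adjusted p = 1.23e-04 and 0.0267, with 11.1% and 3.76% of all called). C3H HeJ and C57BL10/J were not told apart in any tissue (adjusted p = 0.690, 0.272 and 0.382, with 11.9%, 14.2% and 12.5% of all called). The BalbC/J striatum arrays spread most, at 10.63, 9.28 and 9.74. Their choroid plexus marker levels were 9.45, 11.14 and 7.01, the second being the highest of the striatum arrays, and the part of choroid plexus in these values was not tested.

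Marf1 B was higher in C3H HeJ than in C57BL6/J in hippocampus (9.07, 9.02 and 9.04, against 8.50, 8.73 and 8.61; difference 0.43, adjusted p = 0.0134) and brainstem (0.43, adjusted p = 0.0164), but C57BL10/J was not called on it. Without the array with cerebellar markers the brainstem difference of Marf1 B in C3H HeJ was 0.37 (limma adjusted p = 0.0465). In that fit 18.8% of all probe sets were called for C3H HeJ. The Marf1 B call was lost without 1 C57BL6/J array in hippocampus and without either of 2 in brainstem. Marf1 C differed from C57BL6/J in no strain or tissue in the full set of arrays. Without the brainstem array with cerebellar markers, the C57BL10/J and BalbC/J differences of Marf1 C there, 0.43 and 0.41, passed the threshold (adjusted p = 0.0455 and 0.0374). The shares of all probe sets called rose as well, to 11.7% for C57BL10/J and 20.1% for BalbC/J. With that array they were 3.88% for C57BL10/J, and 6.64% higher and 4.16% lower for BalbC/J.

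Abcc1, the export pump, was low in BalbC/J in hippocampus and striatum. On Abcc1 A the BalbC/J hippocampus arrays read 8.28, 8.55 and 8.49, against 8.81, 9.01 and 9.01 in C57BL6/J. In striatum they read 8.61, 8.75 and 8.88, against 9.19, 9.28 and 9.33. BalbC/J lay below C57BL6/J without overlap in both tissues, with differences of -0.51 ± 0.09 (SE) and -0.52 ± 0.08 (adjusted p = 8.13e-04 and 7.11e-04). In brainstem it was C3H HeJ that differed, at 9.47, 9.27 and 9.33 against 8.96, 8.97 and 8.96 in C57BL6/J, higher by 0.39 ± 0.10 (adjusted p = 0.0171). That brainstem call was kept without the array with cerebellar markers (0.41, adjusted p = 0.0236) and lost without 1 of the other C3H HeJ arrays or any 1 of the 3 C57BL6/J arrays. Abcc1 B, a dim probe set at 4.02 to 6.04, was lower in hippocampus in C3H HeJ and BalbC/J, with differences of -0.50 and -0.52 (adjusted p = 0.0134 and 0.0126). Each of these was lost without 1 array of its own strain or without 1 C57BL6/J array.

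**Figure D3:**
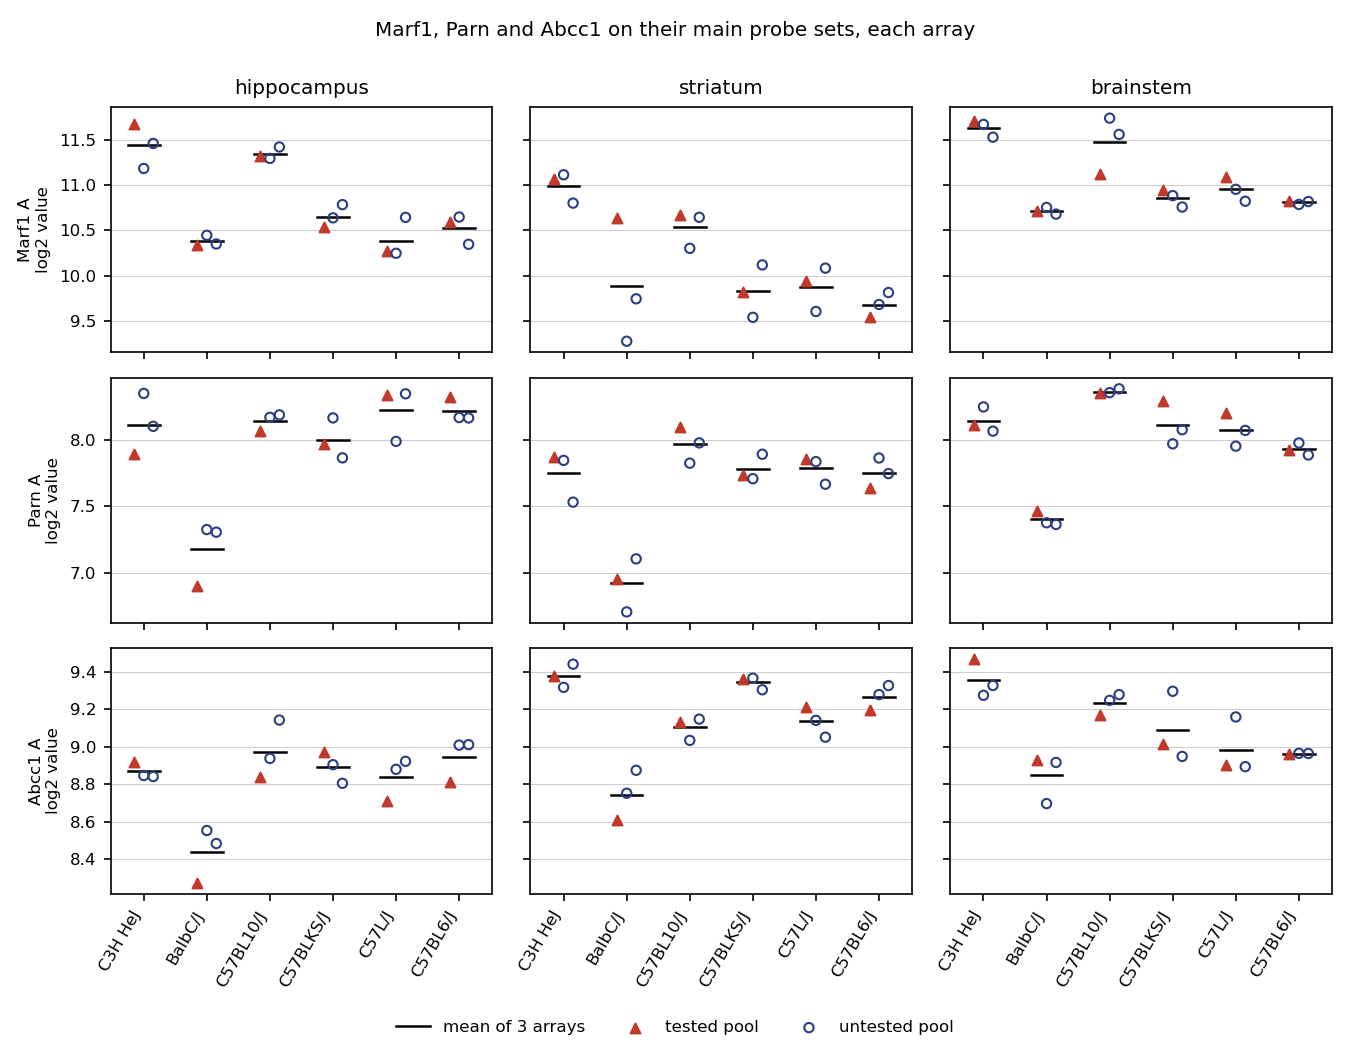
Log2 value of the main probe sets of Marf1, Parn and Abcc1 (rows) in hippocampus, striatum and brainstem (columns), 1 symbol per array, with C57BL6/J at the right; triangles are startle-tested pools, circles untested pools, and bars the mean of 3 arrays. Marf1 A is high in C3H HeJ and C57BL10/J, Parn A is low in BalbC/J, and Abcc1 A is low in BalbC/J in hippocampus and striatum; each row has its own scale.

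The centrosome genes had 1 call each against C57BL6/J. Nde1 was lower in C3H HeJ brainstem, at 9.18, 9.21 and 8.54 against 9.46, 9.68 and 9.71 in C57BL6/J. The lowest of these is the array with cerebellar markers. The difference was -0.64 ± 0.17 with it and -0.41 ± 0.13 (SE) without it (adjusted p = 0.0188 and 0.0466), which moved the value by more than 1.5 times. The call was lost without either untested C57BL6/J array. Cep20 was lower in C3H HeJ hippocampus, at 9.56, 9.66 and 9.58 against 9.86, 9.94 and 10.15 in C57BL6/J, a difference of -0.39 ± 0.10 (adjusted p = 0.0116), which lost its call without 1 C3H HeJ array or without 1 C57BL6/J array. No other contrast of Nde1 or Cep20 with C57BL6/J was called.

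The genes on either side of Pdxdc1 had small differences among strains. Ntan1, whose gene model overlaps that of Pdxdc1, had strain means within 0.23 of each other in hippocampus, within 0.42 in striatum and within 0.26 in brainstem, and no strain was called against C57BL6/J. Without the array with cerebellar markers the BalbC/J brainstem difference of Ntan1, 0.26, passed the threshold (adjusted p = 0.0288). In that fit 20.1% of all probe sets were called for BalbC/J, a larger share than with the array. Mpv17l, on the other side, was higher in BalbC/J brainstem, at 9.29, 9.18 and 9.30 against 8.81, 8.93 and 8.93 in C57BL6/J, by 0.37 ± 0.09 (SE, adjusted p = 0.0159), a call lost without either of 2 BalbC/J arrays or without 1 C57BL6/J array. Rrn3 had strain means within 0.16 to 0.19 of each other in each tissue and was lower in C3H HeJ hippocampus, with a difference of -0.17 ± 0.05 (adjusted p = 0.0346). C57BL10/J was as low there, at -0.19 from C57BL6/J, but was not called, so a low Rrn3 level is not particular to C3H HeJ. The Rrn3 call was lost in 6 of 25 alternative settings.

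Bfar differed on 1 of its 3 probe sets. Bfar C in brainstem read 9.64, 9.65 and 9.50 in C3H HeJ, 9.87, 9.93 and 9.81 in BalbC/J and 9.64, 9.58 and 9.55 in C57BL10/J, against 9.33, 9.30 and 9.43 in C57BL6/J. All 3 strains lay above C57BL6/J, by 0.24, 0.52 and 0.23 (adjusted p = 0.0118, 4.35e-05 and 0.0438). The C57BL10/J call was lost in 17 of 24 alternative settings, and that of C3H HeJ in 3 of 24, namely median centring and the removal of either of 2 C57BL6/J arrays. Bfar A and Bfar B, both bright at 8.80 to 11.16, had no call in any strain or tissue.

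**Figure D4:**
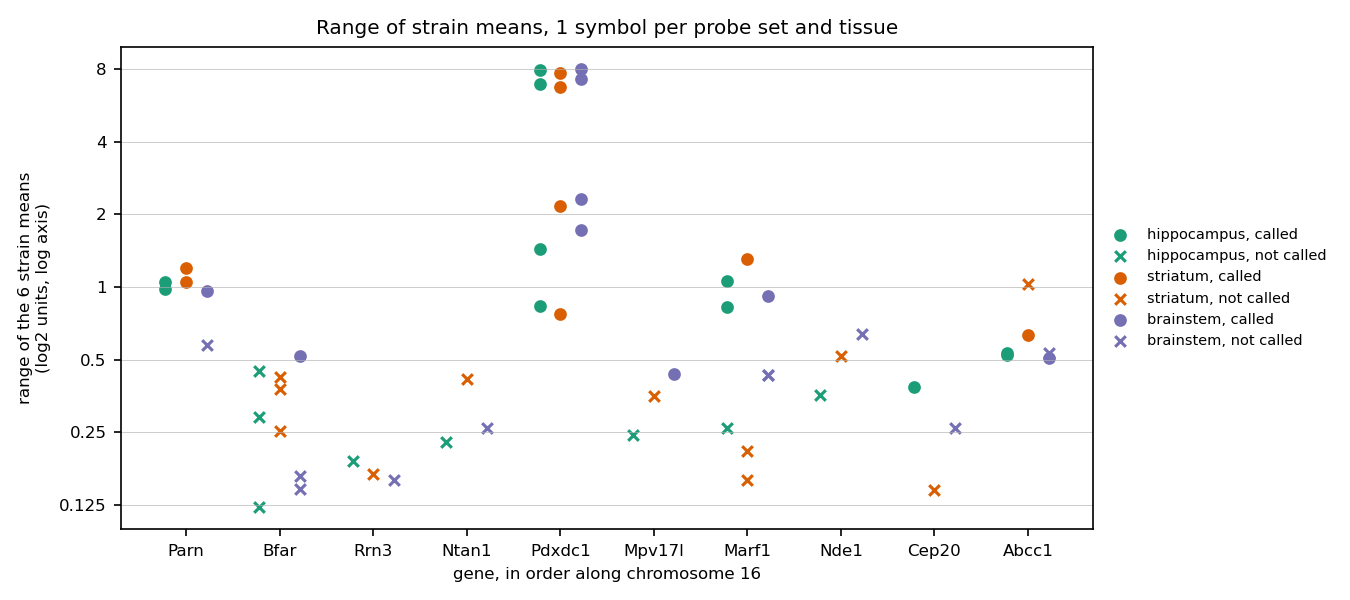
Range of the 6 strain means (log2 units, log axis) for each probe set, with the 10 genes in chromosome order and colours for tissues; filled circles were called by the F test across strains and crosses were not. Pdxdc1 A lies at 1.44 to 2.17 and no neighbour exceeds 1.31, while the ranges of Pdxdc1 B and C are taken against signals near or under the filter level. Pdxdc1 D lies at 2.31 in brainstem, but at 0.83 in hippocampus and 0.78 in striatum, below Parn A, Parn B and Marf1 A in those 2 tissues.

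Genes lying between the members or among the next 20 on either side were given the same test, to show how the wider region behaved. Of 45 such genes, 40 had a probe set, and 29 were tested in hippocampus, 29 in striatum and 27 in brainstem. Of these, 5, 1 and 3 were called by the F test, against the backgrounds given above. Bmerb1, which lies between Mpv17l and Marf1, was higher in BalbC/J by 0.31 in hippocampus and 0.36 in brainstem (adjusted p = 8.58e-04 and 0.0241). Also among the 5 genes of smallest p were Rsl1d1, Pkp2, Snn and Mrtfb, with called differences from C57BL6/J no larger than 0.43. In BalbC/J striatum Bmerb1 was higher by 0.47 (adjusted p = 0.0455), the largest called difference from C57BL6/J among the 5.

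The tissues were compared over all strains, with the limit that the lowest value on an array differed by tissue (between -0.20 and -0.15 in hippocampus, between -0.12 and -0.08 in brainstem, and between -0.02 and 0.03 in striatum). Hippocampus minus striatum was called for 16 of 19 probe sets, 11 higher and 5 lower, hippocampus minus brainstem for 17, 4 and 13, and striatum minus brainstem for 16, 4 and 12. Among all probe sets 83.2%, 80.4% and 85.5% were called, so these shares are close to the background. The members' medians were 0.16, -0.22 and -0.42, against 0.25, 0.04 and -0.22 over all probe sets. Since testing was a term in each tissue, these differences are those of untested pools averaged over strains. They can depart a little from the all-array tissue means given below.

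By mean level most member probe sets were brightest in brainstem. The share of all probe sets that are, and the shares by direction for the tissue pairs above, were not counted, so this is not read as a trait of the members. In hippocampus, striatum and brainstem Ntan1 averaged 10.39, 10.61 and 11.06, and Nde1 8.60, 8.67 and 9.43. Bfar B averaged 9.58, 9.08 and 10.09, and Marf1 A 10.79, 10.13 and 11.07. Exceptions were Cep20 at 9.44, Mpv17l at 8.95, Marf1 B, Marf1 C and Parn B, which were lowest in brainstem, and Abcc1 A, which was brightest in striatum at 9.16. Parn B was called in no pair of tissues, and Parn A was not called between hippocampus and brainstem. In the fit, for untested pools, hippocampus minus brainstem was 0.76 for Marf1 C and -0.29 for Marf1 A, so probe sets of that gene disagreed on the tissue as well as on the strain. Pdxdc1 A averaged 8.38, 8.18 and 8.89, and Pdxdc1 D 3.93, 4.30 and 5.83.

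Whether strain differences depended on the tissue was tested over all 54 arrays, where 17% of probe sets were called. The count for the members was 6 of 19, namely Pdxdc1 A, C and D, Ntan1, Marf1 B and Abcc1 A. Pdxdc1 D was the clearest, its C3H HeJ difference from C57BL6/J being smaller in hippocampus than in brainstem by 1.43 ± 0.23 (SE) and its BalbC/J difference by 1.55 ± 0.23 (adjusted p = 1.39e-04 and 4.55e-05). For those pairs of tissues 3.74% and 0.952% of all probe sets were called. In hippocampus the C3H HeJ and BalbC/J levels of Pdxdc1 D lay near the filter level, with 15 of the 18 arrays above it. The difference there may therefore be understated, and the part of dim signal in this gap was not tested. The C57 levels of Pdxdc1 D were also low in hippocampus and striatum. On Pdxdc1 C the C57BL6/J arrays lay under the filter level in each tissue, so its call is not read as a change in the strain difference. For Abcc1 A the C3H HeJ difference was -0.07 in hippocampus and 0.39 in brainstem, a gap of -0.47 ± 0.13 (adjusted p = 0.0297), and for Ntan1 it was -0.19 in hippocampus and 0.24 in striatum, a gap of -0.44 ± 0.13 (adjusted p = 0.0315, 6.95% of all called). For Marf1 B the C57L/J difference was -0.40 in hippocampus and 0.30 in brainstem, a gap of -0.70 ± 0.17 (adjusted p = 0.0490, 0.444% of all called). No single pair of tissues was called for Pdxdc1 A. All 6 calls were kept without the array with cerebellar markers.

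**Figure D5:**
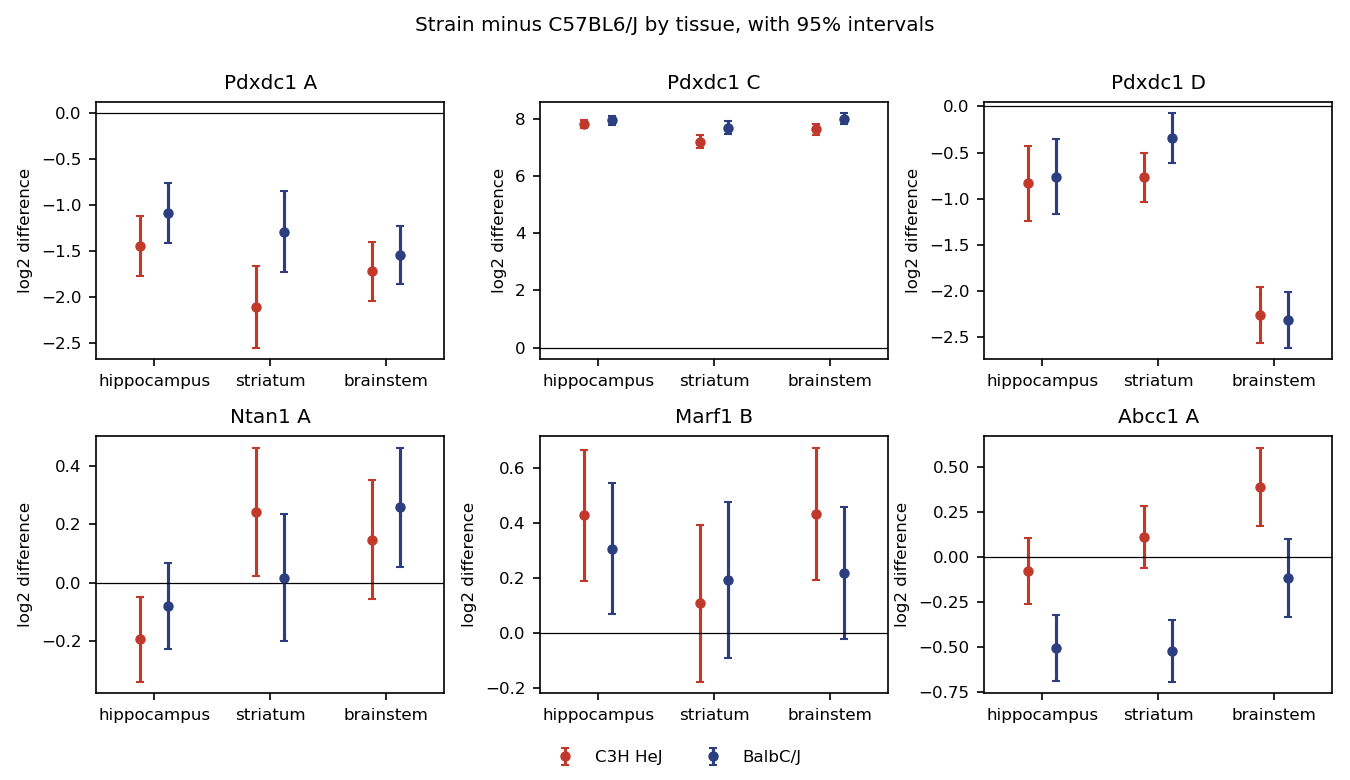
Log2 difference from C57BL6/J of C3H HeJ (red) and BalbC/J (blue) in hippocampus, striatum and brainstem, with 95% intervals from the fit of each tissue, for the 6 probe sets with a strain by tissue call; each panel has its own scale. Pdxdc1 D lies at -0.83 and -0.76 in hippocampus and at -2.26 and -2.31 in brainstem, and Abcc1 A changes side of 0 in C3H HeJ. On Pdxdc1 C the C57BL6/J level is under the filter level, and on Pdxdc1 D the C3H HeJ and BalbC/J hippocampus levels are near it.

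No member was called for startle testing. Startle-tested minus untested pools were called for 0 of 19 probe sets in each tissue and over all tissues by limma, as for 0% of all probe sets. At an unadjusted p under 0.05 there were 1 in hippocampus (Cep20), 1 in striatum (Marf1 B), 0 in brainstem and 3 over all tissues (Bfar B, Marf1 B and Marf1 C). Differences lay between -0.14 and 0.10 in hippocampus, -0.15 and 0.29 in striatum, and -0.04 and 0.17 in brainstem. Marf1 B in striatum differed most, at 8.84 in tested and 8.56 in untested pools, higher in 5 of 6 strains, with an adjusted p of 1.00.

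Members were compared with each other over the 18 strain and tissue means, each tissue centred on its own mean. These are descriptions, since the 18 points share strains, mice and array runs. Pdxdc1 A correlated with Pdxdc1 B at 0.95, with C at -0.94 and with D at 0.82, and B with C at -0.999. Among the neighbours the strongest correlations with Pdxdc1 A were those of Bfar A at -0.79, Bfar B at -0.73 and Cep20 at 0.61. Bfar A and Bfar B had no call among strains in any tissue, and Bfar C stood at -0.20. Ntan1 and Mpv17l, the adjacent genes, stood at -0.45 and 0.04.

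The genes outside the region whose 18 means were most like those of Pdxdc1 A were Dbndd2, Dcaf8 and Ccp110 (r = 0.97 each), and the most opposite were Zfp398, Rab3gap1 and Limch1 (r = -0.97 each). For probe set B they were Rpgrip1, Zfp874a and Arhgap26 on the like side (r = 0.996 to 0.998), and Ociad1, Tmem87a and Nrd1 on the opposite side (r = -0.997 each). For probe set C the like genes were Tmem87a, Ociad1 and Lsm12 (r = 0.997 to 0.998) and the opposite ones Prdx2, Rpgrip1 and Zfp874a (r = -0.998 to -0.997). For probe set D they were Lpcat2, Fam171b and Rhobtb3 (r = 0.93 to 0.94) and Stxbp5, Agpat5 and Ip6k2 (r = -0.92 to -0.91). Of the 100 genes most alike in either direction to each of the 4, 0 lay on chromosome 16, which holds 3.26% of the 11628 genes compared.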

How the data were processed

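RNA pools from 6 strains, 3 tissues and 54 arrays were measured on an Affymetrix-type platform of 45101 probe sets, 64 of them controls. The deposited values are log2 expression levels that the authors made. The submitters' processing notes name R 2.6.1, affy 1.16.0, RMA, GCRMA 2.10.0 and limma 2.12.0. Which of RMA and GCRMA made the deposited values, and whether tissues were normalized together, could not be settled. The number of arrays, 3 per strain and tissue, limits the precision.

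The values were used as deposited. Within each tissue, limma 3.58.1 in R 4.3.3 was fitted to its 18 arrays with terms for strain and testing and an intensity trend. Control probe sets were left out, and a probe set entered if 3 or more arrays of the tissue had it above their 40th percentile, which left 27498 in hippocampus, 27635 in striatum and 27507 in brainstem. P-values were adjusted by Benjamini and Hochberg over all of them, and an adjusted p under 0.05 counted as a call. Strain by tissue, tissue and overall testing comparisons used 1 fit of all 54 arrays and 25210 probe sets. Deviations of pools with the same label had median correlations of -0.02 to 0.10, with single pairs from -0.54 to 0.34. Between hippocampus and brainstem 9 of 18 pairs were over 0.1. No block was used in the main fits, and a replicate block is given as an alternative. Members, gene lists and named genes (the 5 nearby genes of smallest F-test p, and 3 genes at each end of likeness to each Pdxdc1 probe set) were chosen with earlier results of these data known. The fits were tested on simulated data. Alternatives are given in the closing section, and those leaving out arrays from the fit of all tissues, or the C3H HeJ brainstem array with cerebellar markers from the brainstem fit, were chosen after seeing the data.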

Additional observations from a re-analysis of the deposited data

Results flagged for a closer look

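Strain differences that changed with the tissue were found by the F test of strain by tissue over all 54 arrays (limma, adjusted over all probe sets tested) for 6 probe sets. The adjusted p was 2.67e-08 for Pdxdc1 D, 0.00177 for Pdxdc1 C, 0.0142 for Marf1 B, 0.0184 for Ntan1, 0.0263 for Abcc1 A and 0.0405 for Pdxdc1 A. On Pdxdc1 C the C57 arrays lay under the filter level in each tissue, so that its value is not read as a change in the strain difference. Pdxdc1 D lay near that level in C3H HeJ and BalbC/J hippocampus, which limits its reading too. Its C57 levels were also low in hippocampus and striatum. The Marf1 B F call was lost without either of 2 C57L/J hippocampus arrays. The Pdxdc1 A call was lost in 22 of 57 alternative settings, with adjusted p-values up to 0.101. The Abcc1 A call was lost under quantile normalization and without 1 C3H HeJ hippocampus array.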

How the results depend on the processing

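No called difference of a member changed direction under any setting, and of 96 called single results 69 kept their call throughout. The 69 include the results of Pdxdc1 B and C among strains and against C57BL6/J, which had to differ, so the tally overstates how firm the calls are. Testing 1 probe set per gene gave 5 calls among strains in hippocampus, 4 in striatum and 5 in brainstem, against 11, 8 and 9, since each gene then counts once. Averaging all Pdxdc1 probe sets gave BalbC/J minus C57BL6/J -0.21 in hippocampus (limma adjusted p = 0.153) and -0.12 in striatum (adjusted p = 0.681), since probe sets of opposite direction are then averaged. With the replicate block the strain counts were 12, 8 and 9, strain by tissue 6, testing 0 and tissue pairs 16, 17 and 16, and no Pdxdc1 A call changed. Leaving out 1 array at a time gave strain counts of 9 to 12, 8 to 10 and 8 to 11, strain by tissue counts of 4 to 7 (4 without the first untested C3H HeJ hippocampus array), and tissue counts of 14 to 17 for hippocampus minus striatum, 17 for hippocampus minus brainstem and 15 to 18 for striatum minus brainstem. Pdxdc1 A then ran from -1.53 to -1.29, -2.15 to -2.04 and -1.85 to -1.55 for C3H HeJ, and from -1.23 to -0.97, -1.50 to -0.97 and -1.69 to -1.38 for BalbC/J. Besides Bfar C in C57BL10/J brainstem, calls often lost were those among strains in hippocampus for Abcc1 B (18 of 24 settings) and Cep20 (15 of 25), and in C3H HeJ minus BalbC/J for Parn B in brainstem and Pdxdc1 D in striatum (16 of 24 each). Dim signals limit Pdxdc1 B and C, and Pdxdc1 D in hippocampus, whose lower strains lay near the filter level. The C57 levels of Pdxdc1 D were low in both hippocampus and striatum. Pools of 3 mice hide the spread between animals, and tissues share mice. Probe sequences were not used.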
